A study of Rattus norvegicus with 3 samples.

Results

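The genes described here are 9 transcription factors of neurogenesis, Neurog2, Neurod2, Neurod4, Neurod6, Hes6, Insm1, Olig2, Sox4 and Sox11, among the 18425 genes measured by RNA sequencing in the neonatal rat retina. They were taken from the expression table by gene symbol, from a list drawn up with earlier results of these data known, and all 9 were found. Wild-type Sprague Dawley rats received an intravitreal injection of 1 µl at P1 (postnatal day 1), and retinas were harvested at P4. The 3 groups were citrate buffer (the vehicle), saline, and 10 µg of streptozotocin (STZ), a DNA-alkylating analog of N-acetyl glucosamine that was dissolved in citrate buffer. Each group was 1 library of total retinal RNA, and the number of animals or retinas in a library was not given in the sources used here. For its eye function and histology work the study put STZ in the right eye and buffer in the left eye of each animal, and whether the sequenced STZ and buffer retinas came from the same animals was not given. No difference between these libraries therefore has a replicate library, no p-value is given, and treatment, animals and dissection cannot be told apart. For some Notch pathway and cell cycle genes the paper reports lower levels with STZ by RT-PCR on separate biological samples. Its text names none of the factors above among them. For microglia it reports more stained cells with STZ.

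Proneural factors are basic helix-loop-helix (bHLH) proteins that pair with E proteins, bind E-box letters in DNA and push a progenitor to leave the cell cycle and become a neuron. They switch on Notch ligands such as Dll1, which hold neighbouring cells in the progenitor state through the Hes repressors. In the first postnatal days the rat retina still holds dividing progenitors, which give rise mainly to rods, bipolar cells and Müller glia. Hes6 is an atypical Hes protein that opposes Hes1 and favours neurogenesis. Insm1 is a zinc finger repressor of newly committed neuronal cells. Sox4 and Sox11 are SoxC proteins that turn on neuronal genes, and Olig2 marks retinal progenitors close to their last division.

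All 9 factors were lower in the STZ library than in both control libraries, and they are given here in 2 groups by the size of the difference. Hes6, Neurog2, Olig2 and Sox11 had 32.3% to 42.8% smaller shares of the reads with STZ than with either control. Neurod4, Sox4, Insm1, Neurod2 and Neurod6 were 6.01% to 21.9% below the controls. The cut was made on these same values and is not a sharp one. Against buffer, the counting intervals given below overlap across it for Neurog2 and Neurod4, and for Hes6 and Neurod6. Among the 14885 genes whose mean count reached 10, 35.2% had a lower FPKM with STZ than with both controls, beside 9 of the 9 factors. In bulk RNA, fewer cells of a type and less RNA per cell cannot be told apart. FPKM is a read number scaled to transcript length and library size, and the read totals were alike, 21992702 with buffer, 21977843 with saline and 22031249 with STZ.

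**Figure D1:**
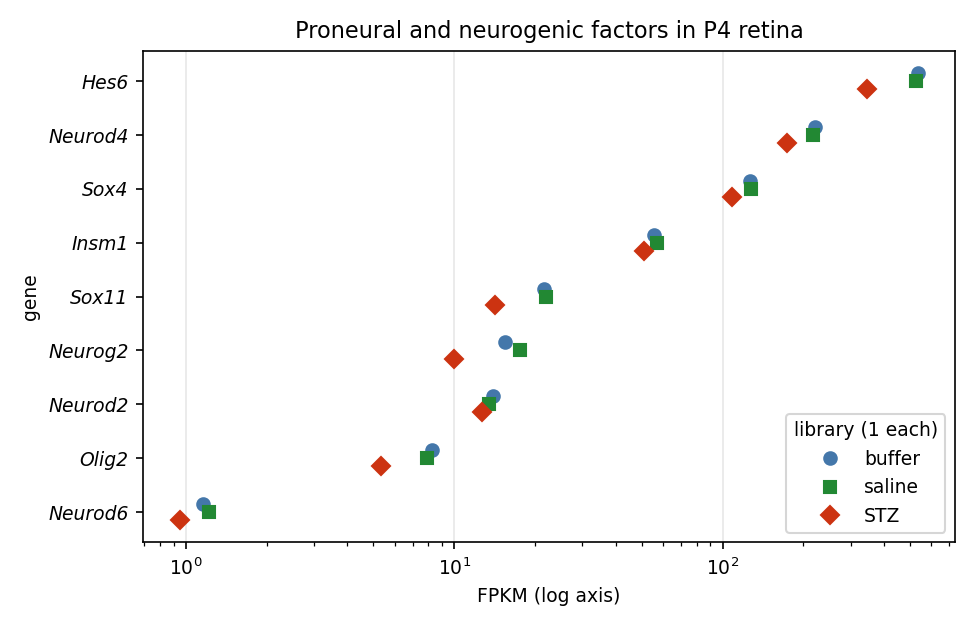
FPKM (log axis) of each factor in the buffer, saline and STZ libraries, 1 point per library and no error bar because each condition was 1 library. The STZ point lies to the left of both control points for every gene, by most for Hes6, Sox11, Neurog2 and Olig2.

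Per kilobase of transcript, Hes6 was the most abundant factor, with 534.72 FPKM in buffer, 526.0 in saline and 345.64 in STZ. It ranked 114 of the 18425 genes in buffer and 183 in STZ. Neurod4 followed at 220.31, 217.5 and 174.39 FPKM, and Sox4 at 126.28, 127.83 and 108.13. Insm1 was at 55.63, 56.8 and 50.93 FPKM, and Sox11 at 21.56, 21.89 and 14.19. These 5 levels kept their order in each library, and their ranges over the 3 libraries lay apart from one another. Neurog2 was at 15.47 FPKM in buffer, 17.55 in saline and 10.0 in STZ, and its range overlapped those of Sox11 and Neurod2. Neurod2 stood at 13.9, 13.46 and 12.64 FPKM, so that it was below Neurog2 in the controls and above it in the STZ library. Olig2 was at 8.29, 7.91 and 5.35 FPKM. The least abundant was Neurod6, at 1.16, 1.22 and 0.95 FPKM, from no more than 46 reads in any library.

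A gene's fold was the ratio of (FPKM + 1) in 2 libraries, called lower below 0.65 and higher above an upper limit close to the inverse of 0.65. Beside it stands the count ratio, the ratio of the gene's shares of all reads, with an exact Clopper-Pearson 95% interval. The interval covers counting error only and compares libraries, since PCR copies were not marked by molecular identifiers and reads are not independent. By the fold, 1 of the 9 factors, Hes6, was lower with STZ than with buffer, where 1.04% of the 18425 genes were. Against saline it was also 1 of 9, Neurog2, where 1.75% of genes were lower. With these settings no factor passed against both controls, and none was higher. Hes6 passed against both when FPKM was scaled by TMM or DESeq2 factors, and Neurog2 did so with a pseudocount of 0.1. The counting interval lay below 1 against buffer for 7 of the 9, where 18.8% of the 14885 genes had such an interval. Against saline these were the same 7 genes, with 23.5% of all genes, and 14.8% of genes had intervals below 1 against both. The 2 comparisons share the STZ library and are not independent.

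Hes6 had 13237 reads in buffer, 12999 in saline and 8578 in STZ. Both controls lay close together and far above STZ. The count ratio of STZ to buffer was 0.647 (95% counting interval 0.629 to 0.665), and to saline 0.658 (0.641 to 0.677). Its fold was 0.647 against buffer, just past the threshold of 0.65, and 0.658 against saline, just short of it. The saline to buffer ratio was 0.983, and its interval of 0.959 to 1.01 held 1.

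Neurog2, a proneural bHLH factor that appears briefly in progenitors about to form neurons, had 236 reads with buffer, 267 with saline and 153 with STZ. The STZ library held the fewest reads. The count ratio was 0.647 against buffer (0.525 to 0.797) and 0.572 against saline (0.466 to 0.70). Of the 9 factors it was the one with the widest gap between the controls, 1.13 for saline against buffer, although that interval, 0.947 to 1.35, held 1. Its fold was 0.668 against buffer and 0.593 against saline, so the control decided whether it passed 0.65. The FPKM and reads of Neurog2 give a counted transcript of 0.693 kb, the shortest of the 9.

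Olig2 had 441 reads in buffer, 420 in saline and 285 in STZ, and Sox11 had 849, 861 and 560. For both genes the controls were close and STZ was lower. The count ratio of Olig2 was 0.645 against buffer (0.554 to 0.750) and 0.677 against saline (0.580 to 0.789). That of Sox11 was 0.658 (0.591 to 0.733) and 0.649 (0.582 to 0.723). Neither passed the fold threshold with the pseudocount of 1, while with 0.1 Olig2 passed against buffer and Sox11 against saline. With the pseudocount of 1 the folds were 0.684 and 0.713 for Olig2, and 0.673 and 0.664 for Sox11.

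**Figure D2:**
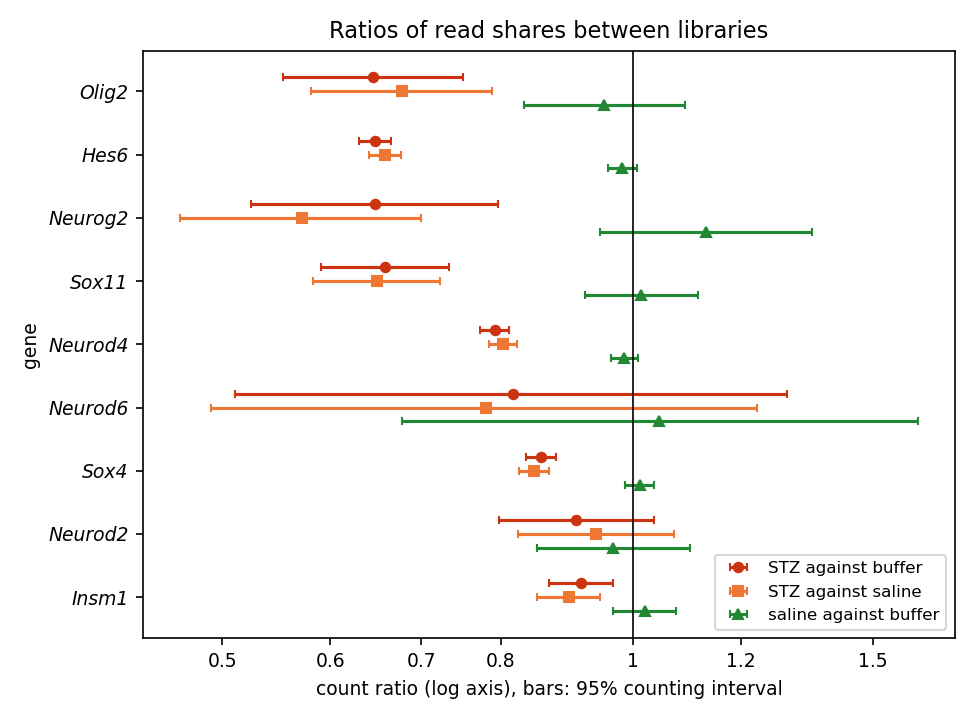
Count ratio (log axis) of each factor for 3 pairs of libraries, with bars for the 95% counting interval and a line at 1. Hes6, Olig2, Neurog2 and Sox11 lie between 0.572 and 0.677 in both STZ comparisons, while each interval of saline against buffer spans 1.

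The other bHLH factors of the Neurod family were nearer to the controls. Neurod4, which takes part in making amacrine and bipolar cells, had 15268 reads with buffer, 15043 with saline and 12113 with STZ. This was the largest read number of the 9, and STZ was again the lowest library, with a count ratio of 0.792 against buffer (0.773 to 0.811) and 0.803 against saline (0.784 to 0.823). Neurod2 had 483, 467 and 440 reads, and its ratio of 0.909 had an interval of 0.797 to 1.04. A change of Neurod2 within these bounds was not detectable at this depth. Neurod6, found in a subset of amacrine cells, had 44, 46 and 36 reads. Its ratio was 0.817 with an interval from 0.511 to 1.30, so a decrease as large as that of Hes6, or none, would both lie within counting error.

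Sox4 had 12430 reads in buffer, 12570 in saline and 10664 in STZ. Its count ratio was 0.856 against buffer (0.834 to 0.879) and 0.846 against saline (0.825 to 0.869). The interval lay above that of Sox11, its SoxC relative, in both comparisons. Insm1 had 2784.07, 2839.33 and 2554.39 reads, and its ratio of 0.916 against buffer (0.868 to 0.967) was the closest to 1. The reads of Insm1 are fractional, and its interval leaves out the error of that estimate. Of the 36 pairs that the 9 factors make, 17 had intervals that lay apart when STZ was set against buffer. The number was 18 with saline as the control, and 0 between the controls. Pairs of other genes were not counted in this way, and genes with many reads have narrow intervals. No conclusion about the factors is therefore drawn from these numbers.

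The spread between the controls is the one measure of variation that these data hold. Between saline and buffer 0 of the 9 factors passed a fold threshold and 0 had an interval that left out 1, while 1.43% of the 18425 genes passed and 27.8% of the 14885 had such an interval. Counting error is thus less than the difference between control libraries for many genes, and the intervals above are a lower limit of the error. The median log2 fold change of the 9 factors was 0.02 in saline against buffer, where that of all 14885 genes was also 0.02. In STZ against buffer it was -0.34, with a range from -0.63 for Hes6 to -0.12 for Insm1, beside 0.03 for all genes. Against saline the median was -0.32, from -0.75 for Neurog2 to -0.08 for Neurod2, beside 0.01 for all genes.

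**Figure D3:**
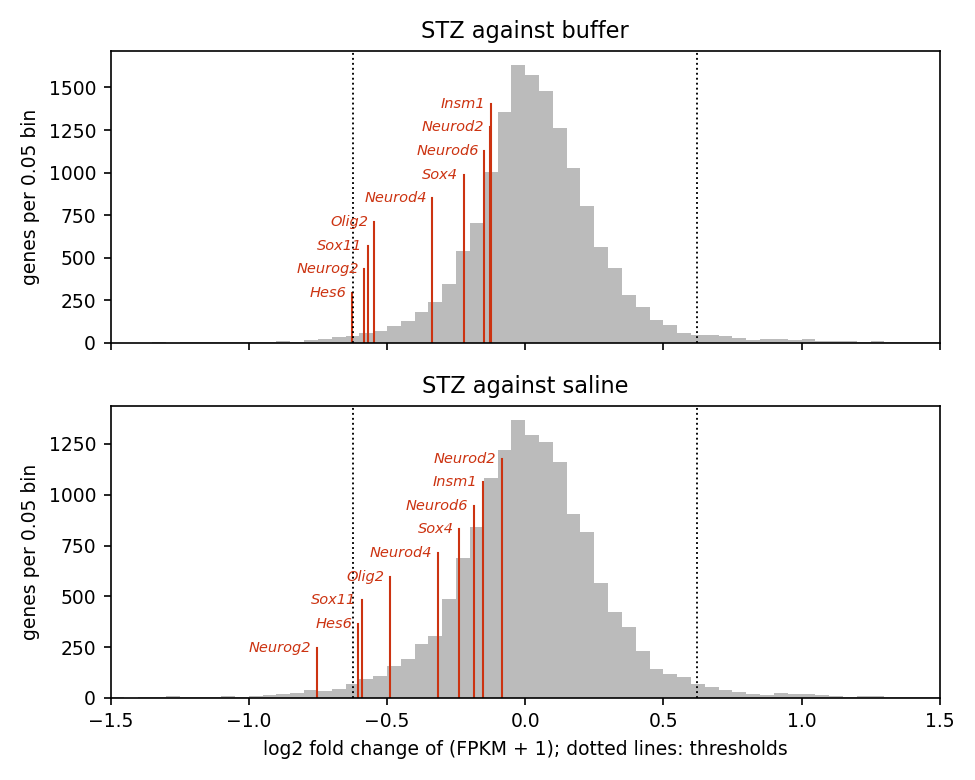
Histograms of the log2 fold change of (FPKM + 1) over the 14885 genes whose mean count reached 10, in bins of 0.05, with a red line and label for each factor and dotted lines at the thresholds; genes beyond 1.5 in either direction are not drawn. All 9 factors lie left of 0, Hes6 at -0.63 against buffer and Neurog2 at -0.75 against saline being the outermost.

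The bases before the start of the 4 factors with the largest differences are shown because these genes were low together, and because proneural factors and their partners bind the letters CANNTG, the E-box, which reads the same on both strands. RefSeq promoters (build GRCr8) matched 7 of the 9 factors, all but Insm1 and Sox4, and the 250 bases upstream of the start were searched. Capitals mark each CANNTG. Hes6 is at chr9:99451097-99451346, minus strand, Neurog2 at chr2:218766955-218767204, plus strand, Olig2 at chr11:43961335-43961584, plus strand, and Sox11 at chr6:49738795-49739044, minus strand.
Hes6: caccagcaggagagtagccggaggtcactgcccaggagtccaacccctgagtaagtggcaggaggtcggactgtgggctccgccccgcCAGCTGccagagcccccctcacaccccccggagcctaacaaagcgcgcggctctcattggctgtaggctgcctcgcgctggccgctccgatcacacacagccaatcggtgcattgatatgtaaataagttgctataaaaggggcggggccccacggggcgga
Neurog2: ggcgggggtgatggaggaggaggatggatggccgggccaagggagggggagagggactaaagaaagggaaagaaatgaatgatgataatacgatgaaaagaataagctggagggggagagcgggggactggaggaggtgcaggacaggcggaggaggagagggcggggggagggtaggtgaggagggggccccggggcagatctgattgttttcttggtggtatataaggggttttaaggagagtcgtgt
Olig2: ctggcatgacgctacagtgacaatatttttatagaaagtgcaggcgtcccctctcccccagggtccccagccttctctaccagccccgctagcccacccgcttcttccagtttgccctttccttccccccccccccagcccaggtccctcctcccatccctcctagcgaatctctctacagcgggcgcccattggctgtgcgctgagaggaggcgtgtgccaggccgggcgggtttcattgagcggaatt
Sox11: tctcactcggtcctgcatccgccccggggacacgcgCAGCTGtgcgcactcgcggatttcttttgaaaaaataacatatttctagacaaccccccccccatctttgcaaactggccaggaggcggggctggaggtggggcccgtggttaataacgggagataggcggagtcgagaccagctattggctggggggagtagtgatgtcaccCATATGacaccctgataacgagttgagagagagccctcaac

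Hes6 has 1 E-box, CAGCTG, which starts 162 bases before the transcription start. Sox11 has 2, CAGCTG at 214 bases and CATATG at 41 bases. The letters are not in these windows of Neurog2 and Olig2, nor in that of Neurod4. Neurod2 and Neurod6 have 3 and 4 matches. In all, 4 of the 7 factors hold an E-box, beside 65.5% of 33469 RefSeq promoters. CAGCTG, a form of the E-box, is in 2 of the 7 and in 12% of all promoters. CAGATG or its other strand CATCTG, another form, is in 2 of the 7, Neurod2 and Neurod6, and in 14% of all promoters. Of the 4 factors lowest with STZ, 2 hold an E-box, and of the other matched 3, 2 do.

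The other proneural bHLH genes differed among themselves. Of 12 in the table, 8 had a mean count of 10 or more, and 4 of these had folds above 1 against buffer and 3 against saline. Neurod1, a factor of photoreceptor and amacrine cells, had 10204, 9291 and 9031 reads and folds of 0.884 and 0.969. Bhlhe22, which is made in amacrine and bipolar cells, had 865, 898 and 1021 reads and folds of 1.17 and 1.12. The median log2 fold change of the 8 genes was -0.06 against each control. Over all 14885 genes with enough reads the medians were 0.03 against buffer and 0.01 against saline. The shares of all genes with folds above or below 1 against a single control were not counted, here or for the lists that follow.

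The E proteins are the partners that proneural factors need to bind DNA. Tcf4 had 1350 reads in buffer, 1133 in saline and 811 in STZ, and its fold of 0.611 was below 0.65 against buffer but 0.723 against saline. Tcf3 had 2692, 2643 and 1954 reads and folds of 0.729 and 0.742. Tcf12 had 4863, 4663 and 4952 reads and folds of 1.01 and 1.04, so the 3 partners differed in size and direction. The Id proteins, which take E proteins away from proneural factors, had 0 of 4 genes past a threshold against buffer. Against saline, Id3 was lower, with 323 reads in buffer, 558 in saline and 300 in STZ, and it was higher in saline than in buffer with a fold of 1.70. The saline library was thus the one that stood apart for Id3.

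The Hes and Hey repressors answer Notch and hold back proneural genes. Of 6 genes, 5 had folds below 1 against buffer and 5 against saline, and the medians were -0.32 and -0.31 on the log2 scale. Hes1 had 576, 545 and 443 reads and folds of 0.777 and 0.818. Hes5 had 1174, 821 and 769 reads. Its fold was 0.655 against buffer and 0.930 against saline, and the saline library was low as well. Hes7 alone was past a threshold, at 1.60 against buffer, from 35, 50 and 64 reads.

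Among 13 genes that proneural factors are known to turn on, 10 had folds below 1 against buffer and 10 against saline, with medians of -0.19 and -0.20 on the log2 scale. By the thresholds 1 was lower than buffer and 2 were lower than saline. Dll1, the Notch ligand, passed against both, with folds of 0.573 and 0.529. The other gene past the threshold against saline was Dll4, named after its value was seen, with a fold of 0.644 and 0.780 against buffer. Gadd45g, a stress and growth arrest gene that Neurog2 induces, had 1426, 1420 and 999 reads and folds of 0.703 and 0.704. Rnd2, a small GTPase of migrating newborn neurons, had 2726, 2675 and 1891 reads and folds of 0.695 and 0.707. For both genes the interval of saline against buffer held 1, and STZ was the lowest library. The 3 genes with folds above 1 were Cbfa2t3 (1.24 and 1.17), Jag2 (1.21 and 1.13) and Cdc25b (1.16 and 1.13). Their counting intervals lay above 1 against both controls, and they are named after their values were seen.

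The remaining Sox genes held the lowest fold of this family. Sox21 had 100 reads in buffer, 95 in saline and 23 in STZ, a count ratio of 0.230 against buffer (0.139 to 0.364), and folds of 0.504 and 0.520. Sox9, a gene of progenitors and Müller glia, had 778, 795 and 480 reads and folds of 0.653 and 0.640. Sox3 had 262, 297 and 161 reads and folds of 0.668 and 0.598. Of the 10 genes, 1 was lower than buffer and 4 were lower than saline by the fold, and 8 of the 9 with enough reads had folds below 1 against each control. Genes linked to repression by Insm1 and REST, a list that includes Insm2 and Rest, had 0 of 8 past a threshold in any pair of libraries. Their medians were -0.11 against buffer and 0.03 against saline. Rcor2 was farthest from 1 against buffer, with a fold of 0.791. Its fold was 1.19 against saline and 0.667 for saline against buffer, so its controls lay apart.

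Most progenitor markers and most of the listed cell cycle genes had folds below 1 in the STZ library, and most newborn neuron markers had folds above 1. Of 12 progenitor genes, 11 had folds below 1 against buffer and 12 against saline, with medians of -0.28 and -0.32, and the 3 below 0.65 against both were Lhx2 (0.603 and 0.568), Nr2e1 (0.604 and 0.584) and Ccnd1 (0.611 and 0.605). The summed reads of all 12 were 62954 in buffer, 64542 in saline and 47567 in STZ, and without Ccnd1, the gene with the most reads, those of the other 11 were 32456, 33814 and 28941. Of 15 cell cycle genes 10 had folds below 1 against buffer and 12 against saline, with medians of -0.21 and -0.19. None was past a threshold, and Mki67 was at 0.690 against each control. Folds above 1 were found for 5 of the 15 against buffer and 3 against saline. Among these were the mitotic cyclins Ccnb1 (1.30 and 1.24) and Ccnb2 (1.10 and 1.17), with counting intervals above 1 against both controls. The mitotic genes Aurkb (0.867 and 0.859) and Birc5 (0.834 and 0.835) lay below 1. Ccnb1, Ccnb2, Aurkb and Birc5 are named after their values were seen. Of 14 newborn neuron genes, in contrast, 14 had folds above 1 against buffer and 13 against saline. Their medians were 0.24 and 0.29, beside 0.03 and 0.01 for all genes. Snap25 was at 1.53 against each control, Elavl4 at 1.36 and 1.63, and Elavl2 at 1.29 and 1.41. The controls differed here too: in saline against buffer 11 of the 14 had folds below 1, with a median of -0.09, and Elavl4 was at 0.834. The part of these shifts in the values of the 9 factors was not tested.

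**Figure D4:**
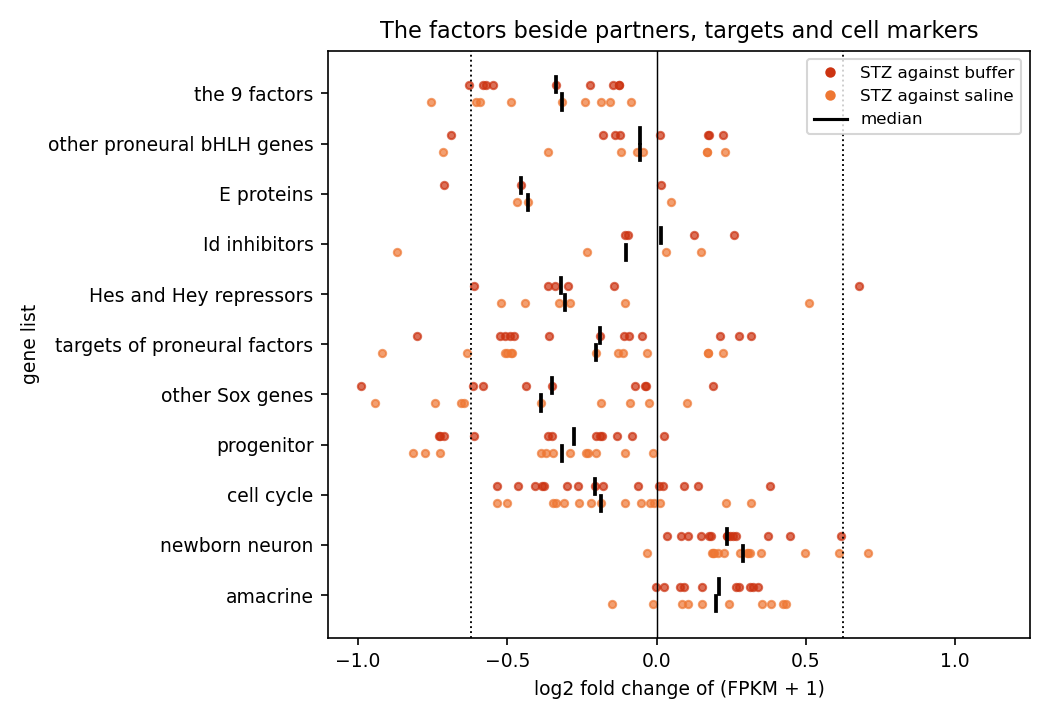
Log2 fold change of (FPKM + 1) for the 9 factors and for each gene whose mean count reached 10 in 10 lists, with red points for STZ against buffer, orange points for STZ against saline, black bars at the medians and dotted lines at the thresholds. The 9 factors lie below 0, with a median of -0.34 against buffer. Also below 0 against buffer are the medians of the E proteins (-0.46), other Sox genes (-0.35), Hes and Hey repressors (-0.32) and progenitor genes (-0.28). The median of the newborn neuron genes lies above 0 (0.24).

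Some of the factors are also made by other cells. Olig2 is known from oligodendrocytes, and the 8 genes of that list summed to 3071 reads in buffer, 2958 in saline and 2861 in STZ. Mbp, a myelin protein gene, had 558, 652 and 404 of these, with folds of 0.730 and 0.582, while the lineage factor Sox10 had 24, 29 and 35. Sox10, Olig1, Mag, Gpr17 and Slc1a3 are named after their values were seen. Olig1 had 2, 0 and 1 reads, Mag had 2, 2 and 9, and Gpr17 had 1, 0 and 0. The 6 astrocyte genes had a median of -0.60 against buffer on the log2 scale, with Pax2, Pdgfra and S100b below 0.65 against both controls. Their summed reads were 7542, 7127 and 7207, most of them from Slc1a3, which is also a gene of Müller glia (6399, 5942 and 6652), and none of the 6 was at 0. Of the 10 amacrine genes, the cells in which Neurod2 and Neurod6 are used, 9 had folds above 1 against buffer and 8 against saline, with medians of 0.21 and 0.20. Gad1, which makes the transmitter GABA, was at 1.27 and 1.35. The STZ library also had more microglia reads (3912 over 10 genes, against 1360 in buffer and 1715 in saline) and more lens reads (3922 over 15 genes, against 347 and 866). The saline library had the most reads of ciliary and iris epithelium, 9012 over 8 genes against 2839 in buffer and 2644 in STZ, and of pigment epithelium, 8321 over 9 genes against 7569 and 6137. Most of the pigment epithelium reads were from Rlbp1, which is also a Müller glia gene, and without it the other 8 genes had 1750 reads in saline, 573 in buffer and 636 in STZ. The part of these cells in the values of the 9 factors was not tested.

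The likeness of 2 genes was measured as the Euclidean distance between their log2 read shares over the 3 libraries, each centred on its own mean, so that 0 is an identical pattern. Hes6 lay nearest to Sox11 (0.033) and Olig2 (0.035) among the factors, and Neurod2 to Insm1 (0.059). Outside the set, in 9822 genes that had whole reads and averaged 100 or more, those nearest to Hes6 were Ccnjl and Ly6g6c, and 85 genes lay within 0.1. Neurog2 was nearest to Nuak2 and Cdkn2c, with 49 genes within 0.1. Olig2 was nearest to Kalrn and Tshr, with 67, and Sox11 to Adamts12 and Rftn1, with 97. The patterns of the other factors with enough reads were shared by far more genes: 523 lay within 0.1 of Neurod4, 1159 of Sox4, 2005 of Neurod2 and 2091 of Insm1. Their nearest genes were Ptprg and Cadps2 for Neurod4, Syf2 and Orc6 for Sox4, Pdrg1 and Ccm2 for Neurod2, and Tcof1 and Rpl13 for Insm1. These distances rest on 3 libraries only and leave out counting error. The counting interval of Olig2 against buffer, 0.554 to 0.750, is wide, and Ly6g6c had 119, 116 and 76 reads. The order of such near genes is therefore not settled.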

How the data were processed

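Retinal RNA was sequenced in 3 libraries, 1 for each injected solution. Per the paper's methods and the submitters' processing notes, the authors assessed the reads with FastQC, trimmed them, mapped them with TopHat2 to the rat genome (rn6), discarded reads with several locations and calculated FPKM with an R script. The annotation is not given in the sources used here. The authors deposited FPKM, TPM and an estimated count of reads per gene, and the joint table equals the tables per library (largest difference 0). Fractional values made up 12.9% (buffer), 13.2% (saline) and 13.1% (STZ) of the deposited estimated counts, which were rounded for intervals.

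The fold and its thresholds followed the methods of the study, and were applied to all 3 pairs of libraries over the whole table. With 1 library per condition no count model was fitted. Depth was about equal in the libraries, and the intervals cover counting error only. The factors and the 20 gene lists were chosen with earlier results of these data known. Genes named from a list were those past a threshold against both controls, or the up to 3 farthest from a fold of 1 against buffer; others are said to be named after their values were seen. A gene that this rule would name is not reported here. Nearest genes were the 2 at the smallest distance, leaving out symbols that start with LOC or RGD and fractional counts.

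Also tried were a pseudocount of 0.1, fold thresholds at 2 and 0.5, TMM factors of edgeR 4.0.16, size factors of DESeq2 1.42.0 (R 4.3.3), TPM, CPM computed from the counts, a minimum mean of 10 counts, a 99.9% interval, and another control (saline, or the averaged FPKM of buffer and saline). All 9 identifiers matched NCBI RefSeq's table. Python 3.11.15, pandas 2.3.3, scipy 1.17.1 and matplotlib 3.10.9 were used, and the calculations were tested on simulated data.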

Additional observations from a re-analysis of the deposited data

How the results depend on the processing

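Under the 7 alternatives tried for each factor, all 63 folds of STZ against control stayed below 1. The fold of Hes6 ran from 0.629 to 0.658, that of Neurog2 from 0.593 to 0.677, that of Sox11 from 0.656 to 0.673 and that of Olig2 from 0.65 to 0.713. With a pseudocount of 0.1, 3 factors (Hes6, Neurog2 and Olig2) were lower than buffer in place of 1, and 2 (Neurog2 and Sox11) were lower than saline in place of 1. With TMM or DESeq2 factors, 2 (Hes6 and Neurog2) were lower than saline. Hes6 was then lower than both controls, as was Neurog2 with the pseudocount of 0.1. With thresholds of 2 and 0.5, 0 factors passed in either STZ comparison. The intervals of Hes6 and Neurod4 in saline against buffer left out 1 with TMM or DESeq2 factors, 2 factors in place of 0, and the median of that comparison changed from 0.02 to -0.01 with TMM. All other alternatives left the counts of factors within 1.5 times. No paired analysis was possible because each condition has 1 library, which also leaves no replicate to drop. Depth limits Neurod6 most, with 36 to 46 reads a library.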

Other observations

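Genes of the retinal neurons that the factors precede were summarised in the same way. Of 11 photoreceptor genes, 7 had folds above 1 in STZ against buffer and 8 against saline, with medians of 0.14 and 0.24 on the log2 scale. Nr2e3, a rod factor, was past the upper threshold against saline with a fold of 1.57, and Rcvrn, which encodes recoverin, was past it against buffer with a fold of 1.62. Otx2 (0.874 and 0.95) and Prdm1 (0.859 and 0.845) had folds below 1, with counting intervals below 1 against both controls. Arr3 was at 0.745 and 0.718, from 24 reads in buffer, 27 in saline and 13 in STZ. Otx2, Prdm1 and Arr3 are named after their values were seen. All 9 ganglion cell genes had folds above 1 against both controls, with medians of 0.17 and 0.21, and 0 of them were past a threshold. The 7 bipolar genes whose mean count reached 10 had medians of 0.06 and 0.03, with 4 folds above 1 and 3 below 1 against each control. Pcp2 was past the upper threshold against buffer, with a fold of 1.56 from 34, 37 and 56.76 reads. Cabp5 was at 1.32 and 1.51, and Lhx4 at 0.772 against each control. Trpm1, named after its value was seen, was at 0.441 against saline, with 13 reads in buffer, 213 in saline and 19 in STZ. Between saline and buffer the photoreceptor median was -0.10 and the ganglion median -0.08.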
